A study of Mus musculus with 96 samples.

Results

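The mir-99, mir-100 and mir-125 hairpins are precursors of 2 related groups of microRNAs, and their levels were followed in mouse liver. The rows were chosen by hairpin identifier: mir-99a (MI0000146), mir-99b (MI0000147), mir-100 (MI0000692), mir-125a (MI0000151), mir-125b-2 (MI0000152) and mir-125b-1 (MI0000725), which makes 6 of the 1187 hairpins in the table and 6 of the 1018 with a count above 0. The libraries are of liver small RNA from 96 mice labelled C57BL/6, in 24 groups of 4 animals. Heterozygous knock-in mice carried 1 endogenous Htt allele and 1 allele with human HTT exon 1 with a CAG tract whose length names the line: Q20 has 20 repeats, Q50 has 50, Q92 has 92 and Q140 has 140. Wild-type littermates were taken from 2 of these lines (Q20-line WT and Q50-line WT), and each of the 6 genotypes held 4 males and 4 females at 6 months and again at 10 months. WT and Q20 served together as controls, as in the study's methods. Each repeat length is a mouse line of its own, bred from knock-in males and C57BL/6J females, and no WT littermates of Q92 or Q140 were in these groups, so that repeat length and line cannot be told apart for these lines.

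MicroRNAs are cut from a hairpin precursor, and the arm that is loaded onto an Argonaute protein pairs with messenger RNAs mainly through its seed, the bases just inside the 5′ end. Members of the mir-99 and mir-100 group have been described as repressors of the growth regulator MTOR in human cells. The mir-125 group is the vertebrate relative of lin-4, which times larval development in Caenorhabditis elegans. In vertebrates a mir-99 or mir-100 hairpin is found next to a mir-125 hairpin at several places in the genome, as copies of an ancestral cluster.

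The mature 5′ sequences are given because the 6 hairpins yield only 5 different ones, which bears on how reads can be assigned. They are RefSeq entries on GRCm38.p6, written 5′ to 3′ with the seed (bases 2 to 8) in capitals.
miR-99a-5p: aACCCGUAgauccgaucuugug
miR-100-5p: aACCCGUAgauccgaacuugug
miR-99b-5p: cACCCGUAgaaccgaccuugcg
miR-125b-5p: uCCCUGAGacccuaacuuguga
miR-125a-5p: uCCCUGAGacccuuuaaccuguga
The upper 3 share the seed ACCCGUA, which no other of the 1679 mature mouse sequences in that table carries. The lower 2 share the seed CCCUGAG with miR-351-5p, miR-6367 and miR-6394. Counted from the 5′ end, miR-99a-5p differs from miR-100-5p by A16U alone, with the base of miR-100-5p first. From miR-99a-5p to miR-99b-5p there are 4 changes, A1C, U11A, U16C and U21C. miR-125b-5p is identical from mir-125b-1 and mir-125b-2, and it shares its 13 first bases with miR-125a-5p. The 3′ arms of the mir-125b hairpins are not identical.
miR-125b-2-3p: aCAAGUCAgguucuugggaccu
miR-125b-1-3p: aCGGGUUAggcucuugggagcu
A read from the 5′ arm therefore cannot tell mir-125b-1 from mir-125b-2 by its sequence, whereas a read from the 3′ arm can.

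The 6 hairpins form 3 pairs in the genome, all on the plus strand. On chromosome 16 the 5′ arm of mir-99a (chr16:77598940-77598961) lies 47339 bases before that of mir-125b-2 (chr16:77646279-77646300), both in introns of Mir99ahg, the long noncoding host gene. On chromosome 17 the 5′ arms of mir-99b (chr17:17830194-17830215) and mir-125a (chr17:17830817-17830840) are only 623 bases apart, within Spaca6, a protein-coding gene of sperm. In the GENCODE annotation mir-99b is intronic in Spaca6, and mir-125a overlaps an exon of at least 1 transcript. On chromosome 9 the 5′ arms of mir-100 (chr9:41531437-41531458) and mir-125b-1 (chr9:41581940-41581961) are 50503 bases apart, in introns of the noncoding transcript 3110039I08Rik.

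The files hold fractions for 4 of the members. The estimated counts of mir-99b and mir-125a were whole (within 0.0001) in all 96 libraries, but those of mir-99a were not whole in 83 libraries, of mir-100 in 87, of mir-125b-2 in 95 and of mir-125b-1 in 96. These are the members with a same or nearly the same mature sequence elsewhere, and no source at hand says how the fractions came about. Values that separate mir-99a from mir-100, or mir-125b-1 from mir-125b-2, are therefore less certain than those of the chromosome 17 pair, and sums of each pair are given below. The median library held 5149567 estimated counts (2195052 to 6662671). The lowest count of a member in any library was 575 for mir-125b-1, so all 6 passed the filter on low counts. At 10 months 4 libraries stood apart from the rest and were left out of the tests: Q92 female replicate 1, Q92 male replicate 2 and replicate 3 of the males of both WT groups. Their values appear as crosses in the plot of levels by sex and age. The liver label was not checked against marker microRNAs, because nothing at hand pairs their identifiers with names. The members summed to 0.989% of all counts (0.702% to 1.39% in single libraries).

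Levels between members are given per length, as CPM (each library's counts scaled to an equal column sum) per kilobase of hairpin. Whether the number of reads follows hairpin length was not tested. mir-125a was highest, with a median of 52405 CPM per kilobase over 96 libraries (33946 to 94780). mir-99b followed with 40334 (25834 to 61873) and mir-125b-2 with 19610 (11066 to 28263). The chromosome 17 pair thus held the top of the order, above the chromosome 16 and 9 pairs. mir-100 had a median of 13384 CPM per kilobase (8147 to 21746), mir-99a of 10009 (5604 to 15802) and mir-125b-1 of 3194 (1414 to 5674). Library by library, mir-99b was above mir-125b-2 and mir-99a was above mir-125b-1 in all 96. All neighbouring ranges overlapped, and mir-125a was above mir-99b in 94 libraries, mir-125b-2 above mir-100 in 94 and mir-100 above mir-99a in 89. These numbers of libraries hold for values per kilobase. Without division by length the median CPM kept the same order of hairpins, at 3564, 2823, 1392, 1071, 651 and 246. Within mir-125b, the chromosome 16 hairpin carried several times the estimated count of the chromosome 9 hairpin, with the uncertainty stated above.

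Both hairpins of the chromosome 16 pair, mir-99a and mir-125b-2, were higher in males than in females at 6 and at 10 months, and none of the other 4 passed the threshold at either age in the edgeR fit. Sex calls were common over all hairpins: 38.2% of the 374 hairpins tested at 6 months differed by sex at an adjusted p under 0.05 (22.5% higher in males, 15.8% lower), and 45.2% of 383 at 10 months (21.9% higher, 23.2% lower). The split moved with scaling, from 84 higher and 59 lower at 6 months to 75 and 75 with column sums, and from 84 and 89 at 10 months to 78 and 102 with column sums and to 100 and 76 with DESeq2 size factors. A count of 2 of 6 members is near that background. Less of a hairpin per cell and fewer cells that make it cannot be told apart in whole liver. Of 18 hairpins listed by identifier as possible cell type markers, which carry no name or role here, 4 were lower in males at 6 months (MI0000243, MI0000554, MI0000703 and MI0001642) and 1 was higher (MI0000168), and at 10 months 9 were lower and 0 higher (edgeR). The 5 hairpins MI0000166, MI0000243, MI0000554, MI0000694 and MI0001642 summed to a median of 342 CPM in males (213 to 555) and 548 in females (292 to 828) at 6 months, and to 422 (267 to 622) and 538 (400.5 to 1079) at 10 months. These 5 are only a part of the list. The set MI0000167, MI0000172 and MI0000703 had medians of 2019 CPM in males and 2475 in females, then 2087 and 2766 at 10 months. In the same order MI0000256 had 25750 and 25230, then 25930 and 25520. MI0000153 had 18000 and 18740, then 19220 and 21330. The set of 2 with MI0000168 had 593 and 413, then 597 and 507. The 6 other hairpins summed to 25080 and 25000, then 20110 and 18630. The part of the listed hairpins in the sex differences of the members was not tested.

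**Figure D1:**
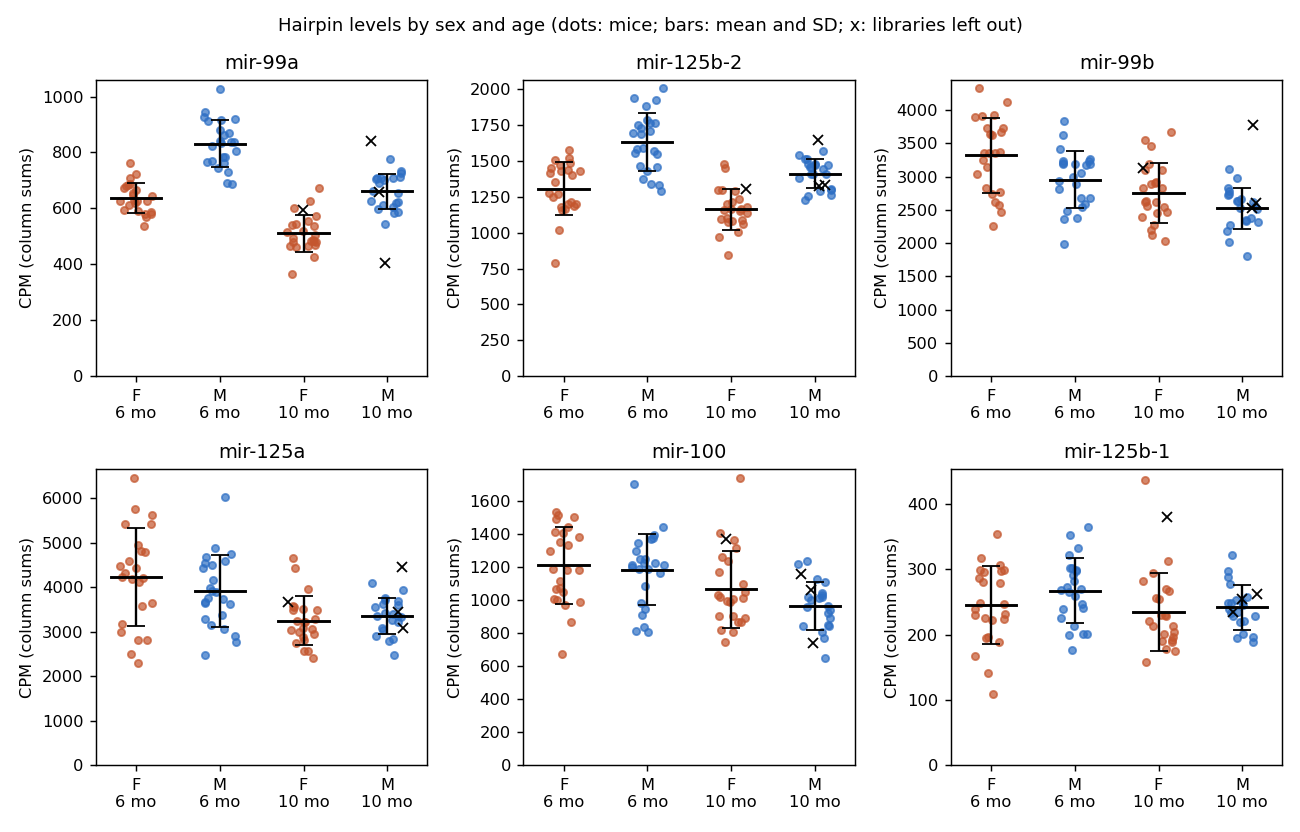
Level of each hairpin (y axis, CPM of the column sums) in females (F, orange) and males (M, blue) at 6 and 10 months. Dots are mice, bars are the mean and SD of the libraries kept, and crosses are the 4 libraries left out. Males lie above most females for mir-99a and mir-125b-2, and the sexes overlap for the other 4 hairpins.

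At 6 months mir-99a ran from 686 to 1027 CPM in 24 males, with a median of 835, and from 537 to 761 in 24 females, with a median of 628. All 24 males lay above the female mean, and 20 of them above the highest female. In the edgeR fit mir-99a was 1.34-fold higher in males (log2 difference 0.42 ± 0.04 SE, adjusted p = 3.38e-11). At 10 months the range was 544 to 778 CPM (median 661) in 21 males and 364 to 672 (median 494) in 23 females. Again every male was above the female mean, 10 of them above the highest female. The fold was 1.32 (log2 0.40 ± 0.05, adjusted p = 1.71e-09). Among the males left out at 10 months, Q50-line WT replicate 3 had 406 CPM, below the female mean of 510, and the other 2 had 658 and 843.

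The other hairpin of that pair, mir-125b-2, was also higher in males. At 6 months it ran from 1289 to 2007 CPM in males (median 1642) and from 786 to 1575 in females (median 1318), and 23 of 24 males lay above the female mean. The fold was 1.27 (log2 0.35 ± 0.05, adjusted p = 1.36e-07). At 10 months the ranges were 1228 to 1572 CPM in males (median 1443) and 844 to 1480 in females (median 1157), with all 21 males above the female mean. The fold was 1.24 (log2 0.31 ± 0.04, adjusted p = 2.01e-08).

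The sex difference was seen in nearly every genotype. For mir-99a, the male mean exceeded the female mean in all 12 pairs of groups (6 genotypes at 2 ages), by 1.18- to 1.43-fold, and the mice of the 2 sexes did not overlap in 9 of the 12. Of 366 hairpins tested at both ages, 4.37% had all males above all females in at least that many pairs, and 6.83% did so in either direction. The ratio was highest in Q20 at 10 months, with 667 ± 62.3 CPM (SD, n = 4) in males and 466 ± 29.7 in females. For mir-125b-2 the male mean was higher in 11 of 12 pairs, and the sexes did not overlap in 5, a number reached by 6.83% of the 366 hairpins with males higher and by 14.5% in either direction. The exception was Q20-line WT at 6 months, with means of 1407 CPM in males and 1424 in females. The library names in the labels end in a tag from L5 to L8, which was used as a batch term without a statement of what it stands for. Within tags, the log2 difference of mir-99a was 0.48 in L6 and 0.42 in L7 at 6 months, and 0.50 in L5, 0.48 in L6 and 0.66 in L7 at 10 months. For mir-125b-2 it was 0.47 and 0.35 at 6 months, and 0.30, 0.39 and 0.59 at 10 months. For these hairpins every tag that could be fitted had the direction of the pooled fit. Each tag was scaled on its own and not every genotype had both sexes in it: in L5 at 10 months only Q140 had, and the mir-125b-2 value there had an SE of 0.19. L8 held too few libraries.

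Neither hairpin of the chromosome 17 pair passed the threshold. mir-99b had a median of 3023 CPM in males (1980 to 3842) and 3356 in females (2251 to 4331) at 6 months, with a log2 difference of -0.12 ± 0.06 (adjusted p = 0.0961 by edgeR). At 10 months the medians were 2560 and 2634 CPM and the log2 difference was -0.10 ± 0.05 (adjusted p = 0.0989). mir-99b sat close to the threshold. At 6 months it was called lower in males with scaling by column sums alone (log2 -0.16, adjusted p = 0.0472) and when any 1 of 16 of the 48 libraries was left out: Q20 female replicates 1 to 4, Q20 male replicate 3, Q50 female replicate 2, Q50 male replicates 1 and 3, Q92 female replicates 2 and 3, Q92 male replicates 1 and 4, Q140 female replicates 1 and 3, Q20-line WT female replicate 3, or else replicate 1 of the Q50-line WT females (log2 -0.18 to -0.15). At 10 months it was called without Q140 female replicate 2 (log2 -0.13, adjusted p = 0.0472). mir-125a had log2 differences of -0.07 ± 0.08 at 6 months and 0.06 ± 0.05 at 10 months (adjusted p = 0.562 and 0.344), with male ranges of 2487 to 6035 and 2475 to 4101 CPM and female ranges of 2308 to 6445 and 2400 to 4662.

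The chromosome 9 pair gave no call either. mir-100 ranged from 810 to 1702 CPM in males and 676 to 1533 in females at 6 months, and its log2 differences were -0.01 ± 0.06 and -0.10 ± 0.07 (adjusted p = 0.895 and 0.27 by edgeR). Within tags the sign of mir-100 was the other way, with 0.13 in L6 and 0.03 in L7 at 6 months and 0.05 in L5, 0.02 in L6 and 0.21 in L7 at 10 months, so no direction can be read for it. mir-125b-1 ranged from 177 to 364 CPM in males and 109 to 355 in females at 6 months, with log2 differences of 0.15 ± 0.08 and 0.10 ± 0.08 (adjusted p = 0.129 and 0.325 by edgeR). The 95% interval of its difference at 6 months, from -0.003 to 0.30, reached a size like that of mir-125b-2. Whether the sex differences changed with age was tested by an interaction term. It was called for 0 of 6 members and 0 of 408 hairpins by edgeR, where 53 hairpins but none of the 6 had an unadjusted p under 0.05. DESeq2 called 2 of 408, none of them a member.

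**Figure D2:**
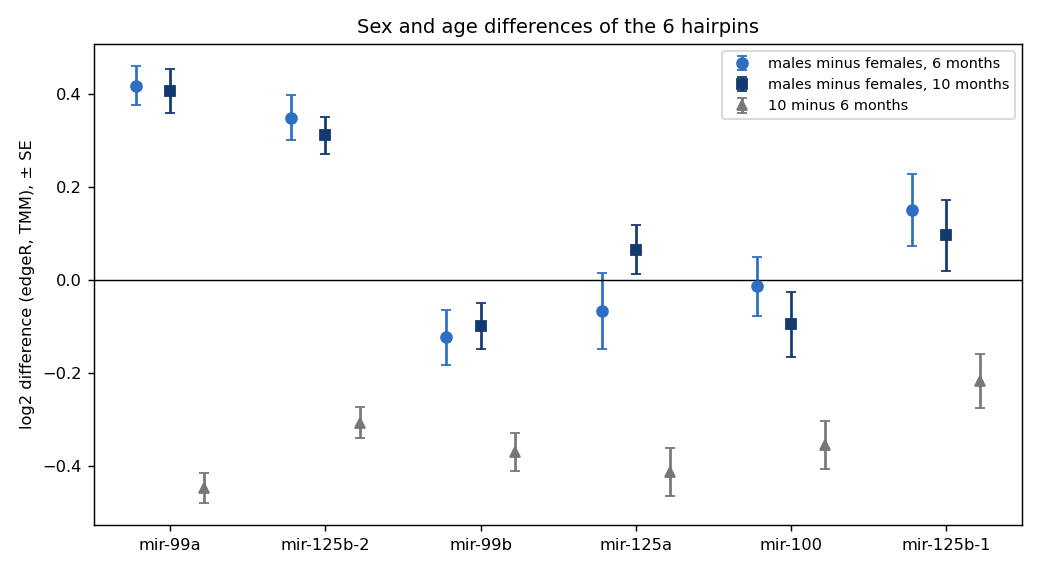
Log2 differences (y axis, edgeR with TMM scaling, bars ± SE) of the 6 hairpins (x axis) for males minus females at 6 and 10 months and for 10 minus 6 months. mir-99a (0.42 and 0.40) and mir-125b-2 (0.35 and 0.31) are above 0 for sex, and all 6 are below 0 for age, from -0.45 to -0.22.

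Ratios of 2 hairpins within a library do not depend on how libraries are scaled, and 15 pairs were tested for sex at each age and for age, of which 30 of 45 tests passed. The tests of ratios took no account of the tag, which was not balanced between the sexes in every genotype. The count of mir-99a relative to mir-100 was 0.710 in males and 0.535 in females at 6 months, a log2 difference of 0.41, and all 24 males lay above the female mean. At 10 months the ratio was 0.690 in males and 0.485 in females, a log2 difference of 0.51, with 20 of 21 males above the highest female. For both, the permutation p was 1e-05, the smallest that 100000 resamples can give (adjusted p = 4.5e-05 over 45 tests). The estimated count of the chromosome 16 hairpin was thus higher in males relative to that of the chromosome 9 hairpin. Such ratios depend on how reads of like sequence were divided, which is not known. In the same way mir-125b-2 relative to mir-125b-1 was 6.16 in males and 5.46 in females at 6 months (log2 difference 0.17, permutation adjusted p = 0.00411), and 5.88 against 5.05 at 10 months (0.22, permutation adjusted p = 0.00102). Males lay above the female mean in 21 of 24 and 20 of 21 mice.

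Ratios of cluster partners came next. mir-99a relative to mir-125b-2 was 0.511 in males and 0.491 in females at 6 months (log2 difference 0.06, permutation adjusted p = 0.165), and 0.467 against 0.439 at 10 months, a small difference (0.09) that passed the test with 19 of 21 males above the female mean (permutation adjusted p = 0.000138). mir-99b relative to mir-125a did not pass the test at 6 months (log2 difference -0.07, permutation adjusted p = 0.248) and was lower in males at 10 months (-0.18, permutation adjusted p = 0.000476, 20 of 21 males below the female mean). mir-100 relative to mir-125b-1 was lower in males at both ages (-0.18 and -0.20, permutation adjusted p = 0.00124 and 0.00095). Of all 15 pairs, 10 were chosen after the data had been seen. Among these, mir-99a relative to mir-99b gave the largest sex difference at 6 months, 0.54 (23 of 24 males above the female mean, permutation adjusted p = 4.5e-05).

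**Figure D3:**
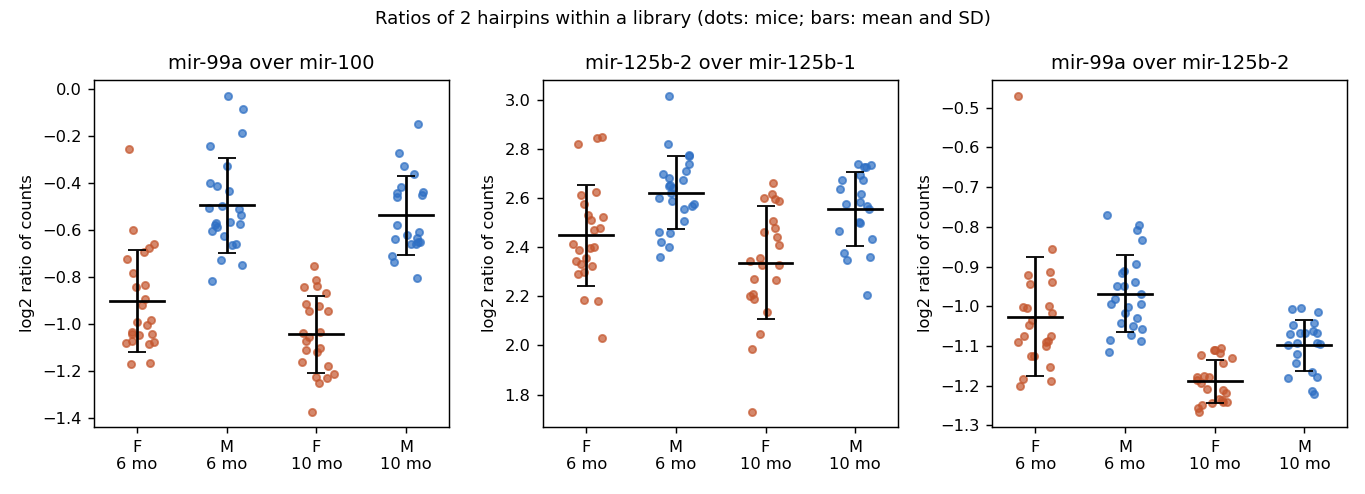
Log2 ratio of the counts of 2 hairpins within a library (y axis) in females (F, orange) and males (M, blue) at 6 and 10 months. Dots are mice, bars the mean and SD of 24 mice per sex at 6 months and of 23 females and 21 males at 10 months. For mir-99a over mir-100 the males are higher by 0.41 and 0.51, with 20 of 21 males above the highest female at 10 months.

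Sums over each pair of like sequences, chosen after the data had been seen, do not depend on how reads were divided within the pair. The sum of mir-125b-1 and mir-125b-2 was 1.23-fold higher in males at 6 months (medians 1904 and 1582 CPM, permutation adjusted p = 6e-05) and 1.19-fold at 10 months (1688 and 1360 CPM, permutation adjusted p = 8e-05), in 21 of 24 and 21 of 21 males above the female mean. The mir-125b hairpins, summed, were thus higher in males at both ages. The sum of mir-99a and mir-100 was 1.09-fold higher at 6 months (permutation adjusted p = 0.05) and 1.04-fold at 10 months (permutation adjusted p = 0.399), with 17 of 24 and 13 of 21 males above the female mean. That sum was thus at the threshold at 6 months and not past it at 10 months.

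All 6 hairpins were lower at 10 months than at 6 months. Over all hairpins tested, 58.6% of 408 differed by age (27% lower and 31.6% higher at 10 months), with a median log2 difference of 0.01. The 6 members are not independent of each other. Levels of cluster partners were correlated between mice of a group (Pearson r from 0.762 to 0.941), and how reads of like sequence were divided is not known. The share of 27% therefore cannot tell how unusual 6 of 6 lower members are. mir-99a fell by 0.45 on the log2 scale (SE 0.03, adjusted p = 3.22e-22), from a median of 716 CPM (537 to 1027) in 48 mice to 585 (364 to 778) in 44. mir-125a fell by 0.41 (SE 0.05, adjusted p = 3.22e-11), from a median of 4139 CPM (2308 to 6445) to 3275 (2400 to 4662). The ranges overlapped for both, but 43 and 40 of the 44 older mice lay below the younger mean of their sex. mir-99b fell by 0.37 (SE 0.04, adjusted p = 2.64e-13), with medians of 3186 and 2623 CPM and 39 of 44 older mice below that mean. mir-100 fell by 0.36 (SE 0.05, adjusted p = 8.90e-09), with medians of 1207 and 1004 CPM and 36 of 44 mice. The mir-125b hairpins had the smallest estimates. mir-125b-2 fell by 0.31 (SE 0.03, adjusted p = 6.62e-14), with medians of 1453 and 1291 CPM and 42 of 44 mice. mir-125b-1 fell by 0.22 (SE 0.06, adjusted p = 0.000795), with medians of 262 and 230 CPM and 32 of 44 mice. All these p-values are from edgeR. Within libraries, the age ratios of mir-125b-2 to mir-100, mir-99b and mir-125a did not pass the test (permutation adjusted p = 0.238, 0.285 and 0.16). Its ratios to mir-99a and mir-125b-1 passed (permutation adjusted p = 4.5e-05 and 0.0242). Ratios of mir-125b-1 to mir-99a, mir-99b, mir-100 and mir-125a passed as well (permutation adjusted p = 4.5e-05, 0.0154, 0.000422 and 0.00763). By age the CPM sum of mir-125b-1 and mir-125b-2 changed by -0.17 on the log2 scale (permutation adjusted p = 9e-05). That of mir-99a and mir-100 changed by -0.27 (permutation adjusted p = 6e-05). These sums were scaled by column sums, not by TMM, so they cannot be set beside the falls above. With column sums the edgeR differences were -0.19 for mir-125b-2 and -0.10 for mir-125b-1. For mir-99a and mir-100 they were -0.325 and -0.24. Of the 18 listed hairpins 4 were higher and 4 lower at 10 months. A further 4 hairpins fixed as possible neighbours in cluster or seed, MI0000557, MI0000559, MI0000561 and MI0000643, held 2 lower with age, 1 lower in males at 6 months (MI0000643) and 0 called for sex at 10 months or for repeat length.

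Scaling matters for age. With column sums alone, the median of all hairpins moved up by 0.12 (log2), the split of calls went from 129 higher and 110 lower to 168 higher and 71 lower, and mir-125b-1 was no longer called (log2 -0.10, adjusted p = 0.177), while the other 5 members were. Relative to the median hairpin of each fit, the members lay between -0.46 and -0.23 with TMM scaling, and between -0.46 and -0.23 with column sums. A change of scaling shifts all hairpins nearly alike, so this likeness was fixed in advance and is no check of the falls. The mean was lower at 10 months in 12 of 12 genotype and sex groups for mir-99a and mir-99b, in 11 for mir-125a and mir-125b-2, in 9 for mir-100 and in 8 for mir-125b-1. The mice of the 2 ages were separate animals sequenced as separate libraries. Whether equal tags at the 2 ages mean 1 run is not known, and an effect of age cannot be told apart from one of the sets of libraries. Ratios changed with age as well: mir-99a fell relative to mir-125b-2 by 0.15 on the log2 scale (permutation adjusted p = 4.5e-05), and mir-100 relative to mir-125b-1 by 0.14 (permutation adjusted p = 0.000422). mir-99b and mir-125a, 623 bases apart, had a ratio that did not pass the test (log2 change 0.03, permutation adjusted p = 0.354).

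No member passed the threshold for repeat length, the question the study was designed for. Against the controls, 0 of 6 members passed the threshold in Q50, Q92 or Q140 at either age, and 0 of 6 followed CAG length as a number. Over all hairpins, edgeR called 0.267% of 374 hairpins in Q92 at 6 months, all higher, and 0% in the other 6-month tests. At 10 months it called 0% of 383 hairpins in Q50, 1.04% in Q92 (0.783% higher and 0.261% lower), 1.31% in Q140, all higher, and 2.09% with CAG length (1.83% rising and 0.261% falling). Of the members, 0 had an unadjusted p under 0.05 in these tests at 6 months. At 10 months 1 had, mir-99b in Q92. Over all hairpins, in the order Q50, Q92, Q140 and CAG length, 7, 29, 5 and 8 of 374 had such a p at 6 months. At 10 months 9, 65, 52 and 65 of 383 had, so 1 member in Q92 does not stand out. DESeq2 called 0 members in any of these tests.

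The member nearest to a difference was mir-99b in Q92 at 10 months. It ran from 2011 to 2621 CPM in 6 Q92 mice (median 2430) and from 1808 to 3665 in 22 controls (median 2651). The ranges overlapped, and 5 of the 6 Q92 mice lay below the control mean of their sex. The log2 difference was -0.17 ± 0.08 (adjusted p = 0.265 by edgeR). Its neighbour mir-125a ran from 2400 to 3560 CPM (median 2943) against 2475 to 4662 (median 3338), with a log2 difference of -0.17 ± 0.08 (adjusted p = 0.299). In L6 they were -0.32 ± 0.10 and -0.30 ± 0.12, and in L7, with 8 libraries, 0.06 ± 0.16 and 0.03 ± 0.15. The Q92 mice left out at 10 months had 3131 and 3783 CPM of mir-99b, both above the control median. At 6 months mir-99b and mir-125a in Q92 had log2 differences of 0.05 ± 0.09 and 0.03 ± 0.12, opposite in sign.

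**Figure D4:**
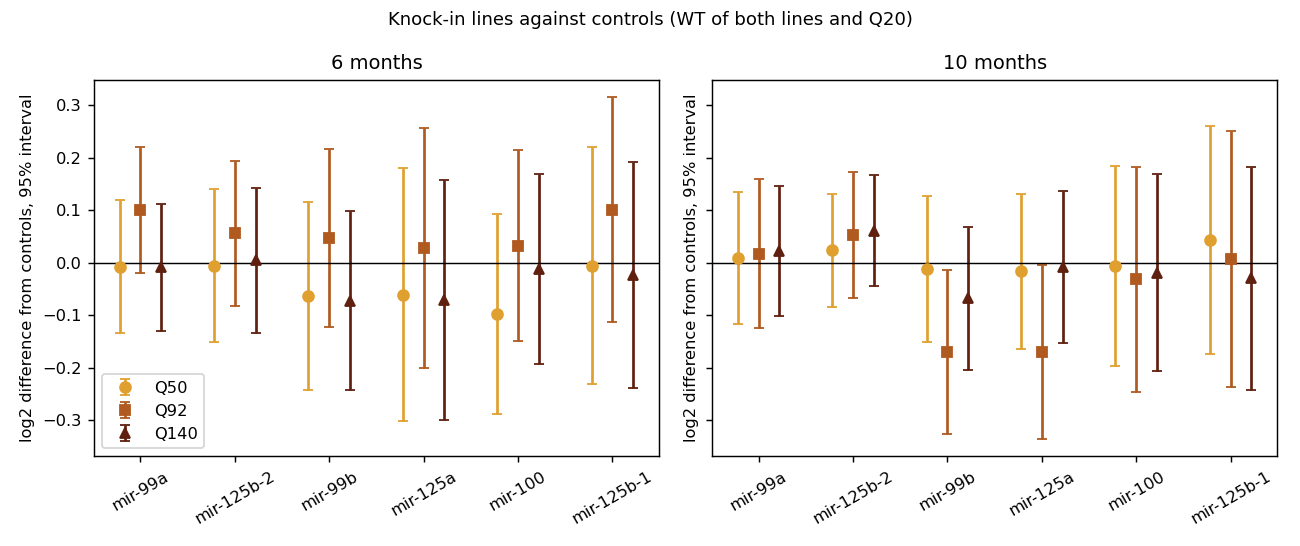
Log2 differences from the controls (y axis, with 95% intervals) for Q50, Q92 and Q140 at 6 months (left) and 10 months (right), for each hairpin (x axis). All adjusted p-values were above the threshold, and the lowest values are those of mir-99b and mir-125a in Q92 at 10 months (both -0.17).

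For Q140, the longest repeat, mir-99a ran from 578 to 919 CPM at 6 months (median 682) and from 485 to 778 at 10 months (median 585), against control ranges of 537 to 1027 (median 704) and 364 to 728 (median 592). Its log2 differences were -0.01 ± 0.06 and 0.02 ± 0.06. mir-125b-2 in Q140 ran from 1202 to 1768 CPM at 6 months and from 1149 to 1572 at 10 months, with log2 differences of 0.00 ± 0.07 and 0.06 ± 0.05. Across the members, Q140 differences lay between -0.07 and 0.00 at 6 months and between -0.07 and 0.06 at 10 months, with SEs from 0.05 to 0.12. The 95% interval of mir-99a at 10 months, from -0.10 to 0.15, leaves out a change as large as that between the sexes. For mir-125b-1, the least abundant, the interval ran from -0.24 to 0.18. Q140 mice in L7 at 10 months stood higher for mir-99a (0.34 ± 0.14), mir-125b-2 (0.33 ± 0.12) and mir-125b-1 (0.45 ± 0.17). That tag held 8 libraries, and its only Q140 mice were female replicates 1 and 2. In L6 the same differences were -0.14 ± 0.10, -0.07 ± 0.08 and -0.16 ± 0.15. In L5 they were 0.05 ± 0.13, 0.08 ± 0.11 and -0.17 ± 0.23.

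The remaining genotype comparisons called 0 members. Of the 18 listed hairpins, 4 were higher in Q140 and with CAG length at 10 months and 2 in Q92, and 0 were called in these tests at 6 months or in Q50 (edgeR). In Q50, log2 differences lay between -0.10 and -0.01 at 6 months and between -0.02 and 0.04 at 10 months. At 6 months the tags disagreed for Q50, with -0.28 ± 0.09 for mir-99b and -0.34 ± 0.12 for mir-125a in L7 and 0.19 ± 0.14 and 0.33 ± 0.23 in L6. All 8 Q20 mice of that age were in L7. Slopes per 100 repeats lay between -0.03 and 0.03 at 6 months and between -0.08 and 0.05 at 10 months. The slope differed between males and females, or between ages, for 0 of 6 members by edgeR or DESeq2, none with an unadjusted p under 0.05. Over all hairpins these tests gave 0 calls by edgeR with 9 to 43 unadjusted p under 0.05, and DESeq2 called 1.31% of 383 for the difference between sexes at 10 months and 0 in the other tests. Q20 and Q50, each set against its own line's WT, and the 2 WT groups set against each other gave 0 of 6 at both ages, where edgeR called 0% of all hairpins and DESeq2 called 1 hairpin in 1 of these 6 tests, no member. No member had an unadjusted p under 0.05 in them, where 1 to 43 of all hairpins had in a test. The lowest unadjusted p of a member in the Q20 comparison was 0.0977 for mir-100 at 6 months (log2 0.19 ± 0.11) and 0.0941 for mir-125b-1 at 10 months (-0.23 ± 0.13). With both ages combined as a sum of Z, 0 of 6 passed for these lines or CAG length (in the order Q50, Q92, Q140, length), where edgeR called 0%, 0.273%, 0% and 0.546% of 366 hairpins.

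Mice that were high for a hairpin in their own group were also high for its cluster partner. Deviations of log2(CPM + 1) from the group mean were correlated for 5 pairs at each age, 20 coefficients in all. mir-99a and mir-125b-2 had r = 0.831 and rho = 0.873 over 48 mice at 6 months, and r = 0.941 and rho = 0.891 over 44 at 10 months. mir-99b and mir-125a had r = 0.874 and rho = 0.847, and r = 0.762 and rho = 0.714. mir-100 and mir-125b-1 had r = 0.881 and rho = 0.776, and r = 0.850 and rho = 0.803. The highest permutation p adjusted over the 20 coefficients was 9e-05. Without the 2 mice farthest from the median the r values of these 3 pairs were between 0.720 and 0.905, and within tags between 0.591 and 0.963. Members of a pair were measured in the same library and share its total.

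**Figure D5:**
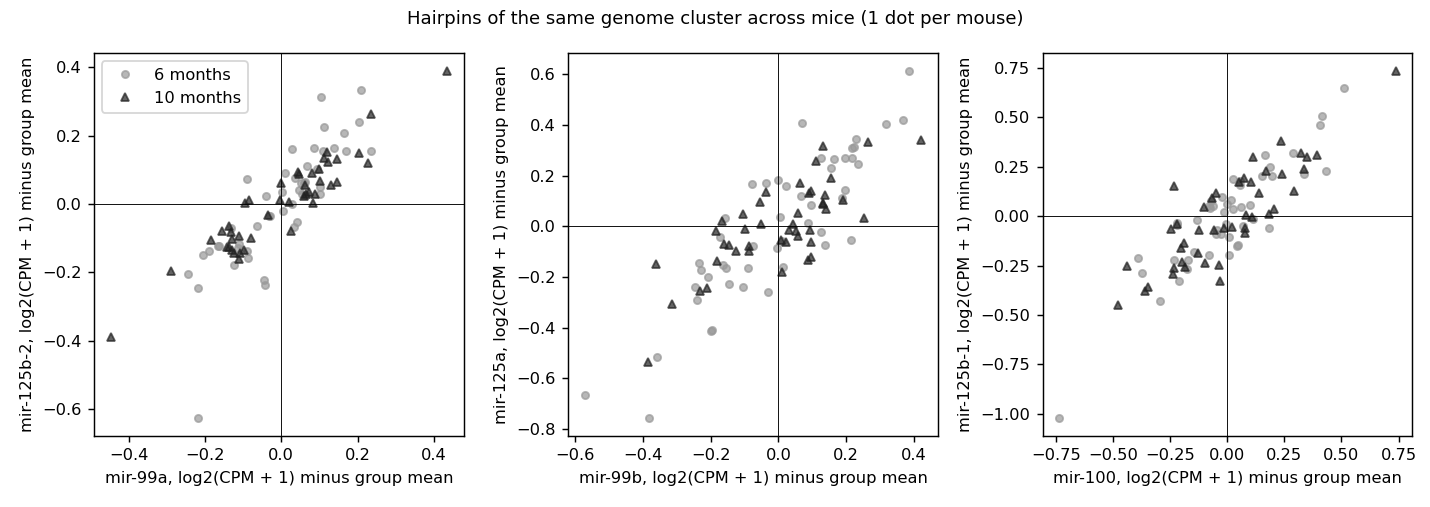
Deviation of each mouse from its group mean, in log2(CPM + 1), for the hairpin on the x axis and its cluster partner on the y axis, at 6 months (grey circles, 48 mice) and 10 months (black triangles, 44 mice). Partners rise and fall together, with r from 0.762 to 0.941.

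Members with like sequences in different clusters correlated as well, and how their reads were divided is not known. mir-125b-2 and mir-125b-1 had r = 0.899 and rho = 0.825 at 6 months, and r = 0.815 and rho = 0.782 at 10 months. mir-99a and mir-100 had r = 0.727 and rho = 0.723, and r = 0.819 and rho = 0.761. Without the 2 farthest mice r stayed between 0.709 and 0.836, and within tags between 0.695 and 0.925. As a description over the 92 kept libraries of both ages, r between members ran from 0.192 for mir-99a and mir-125a to 0.863. That highest value held for mir-100 with mir-125b-1 and equally for mir-125b-2 with mir-125b-1. The chromosome 16 and chromosome 9 hairpins were more like each other (r from 0.725 to 0.863) than like mir-125a (0.192 to 0.484). Among 403 other hairpins, the most alike by this measure were MI0009939 for mir-99a (r = 0.551), MI0004703 for mir-99b (0.679) and mir-100 (0.668), MI0000561 for mir-125a (0.698), and MI0000169 for mir-125b-2 (0.579) and mir-125b-1 (0.667). The next 2 for each member had r from 0.499 to 0.659. They are given by identifier, as nothing at hand pairs a name with them.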

How the data were processed

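Per the labels and the study's methods, liver RNA was extracted with a miRNeasy kit and its small fraction sequenced as strand-specific single-end reads on a HiSeq instrument. The labels name CASAVA 1.8.2. By the study's methods, clipped reads were aligned to mm10 with STAR at default settings and counted with HTSeq. How fractional estimates came from these steps is not stated. Which hairpin annotation was used is not stated. Estimated counts per hairpin and FPKM were deposited by the authors. The deposited FPKM were used only to recover hairpin lengths, which equalled those of RefSeq for the 4 members listed there as hairpins. The design had assumed whole counts, so estimated counts were rounded before the tests.

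Members and lists were chosen with earlier results of these data known. All 6 members are named in every comparison, with the 3 hairpins nearest to each by correlation (identifiers given for the nearest). A list of 18 marker hairpins and 1 of 4 neighbouring hairpins are given by identifier only, as nothing at hand pairs their names. Groups came from the labels. Libraries with a robust standardized connectivity under -5 on variance-stabilized counts, as in the study, were excluded, all 4 of them from the 10-month set. Hairpins with at least 1 CPM in 8 libraries entered quasi-likelihood F tests after TMM scaling (edgeR 4.0.16, R 4.3.3), with Benjamini-Hochberg adjustment over all hairpins and a threshold of 0.05. Covariates were sex and the tag L5 to L8 of the library name (sex tests: the 6 genotypes and that tag; age tests: genotype and sex). WT entered the CAG slope with 7 repeats. Ratios and sums used two-sided permutation tests with 100000 resamples, sexes permuted within genotype and ages within genotype and sex. The tag did not enter these permutation tests. The p-values measure the spread between mice. The edgeR tests of sex at 6 months, of age and of Q140 at 10 months were tried on simulated whole counts. The simulated counts held no tag effect and no reads shared between hairpins. Results of that trial are not given here, and it did not cover the permutation tests. Alternatives were other scalings, no filter, DESeq2 1.42.0 (the study's tool, here without outlier replacement), no tag, all libraries, a replicate block, other controls and each library left out in turn.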

Additional observations from a re-analysis of the deposited data

Results flagged for a closer look

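In 5 of 144 sets of 4 mice (6 hairpins in 24 groups), 1 mouse lay far from the other 3. Chance alone flags about 1 in 20 such sets. In Q50-line WT females at 6 months, replicate 3 had 3628 CPM of mir-99b where the others had 2617 to 2765, and 4187 CPM of mir-125a where the others had 2820 to 2994. In the females of that line at 10 months, replicate 3, another animal, had 3963 CPM of mir-125a against 2824 to 2984. Q140 female replicate 3 at 10 months had 1480 CPM of mir-125b-2 against 1149 to 1168, and Q50 female replicate 3 at 6 months had 194.8 CPM of mir-125b-1 against 222.9 to 225.3. All 5 values are from libraries kept in the tests, with totals between 5381396 and 6344234 estimated counts.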

How the results depend on the processing

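The counts of members called were 2 for sex at each age, 6 for age and 0 for every genotype, CAG and interaction comparison. With a replicate block these counts were again 2, 2, 6 and 0. The numbers do not pair the mice: same-numbered mice of different groups had a mean correlation of -0.005 at 6 months and 0.0005 at 10 months, and 9 of 48 and 13 of 44 libraries were closest to their own number. Leaving out each library in turn gave 2 to 3 members for sex, 6 for age and 0 elsewhere. mir-99a stayed between 0.36 and 0.43 (log2) for sex at 6 months and between 0.39 and 0.44 at 10 months, and mir-125b-2 between 0.28 and 0.36 and between 0.29 and 0.34. mir-100 at 6 months ran from -0.0906 to 0.0123, above 0 without either Q50-line WT female replicate 3 or Q20-line WT male replicate 2, and was 0.0015 with no tag term. With all libraries kept, the ratio of mir-125a to mir-125b-1 for sex at 10 months was 0.016 and that of mir-99b to mir-100 for age 0.000409, neither called; that of mir-99b to mir-125b-1 for sex at 10 months was no longer called (-0.147, permutation adjusted p = 0.0882), while those of mir-100 to mir-125a for sex at 10 months (-0.204, permutation adjusted p = 0.028) and of mir-99a to mir-99b for age (-0.104, permutation adjusted p = 0.0374) became calls. With Q20 alone as controls the lowest combined Z in Q92 was -2.21. Counts over all hairpins moved more. At 10 months the CAG length test went from 8 calls to 18 with column sums, 17 by DESeq2 or without WT and 4 with no filter. Q140 went from 5 to 21 with Q20 alone as controls, 10 by DESeq2, 8 with column sums, 3 with all libraries and 0 with WT alone. Q92 went from 4 to 12 with Q20 alone, 8 by DESeq2, 7 with the replicate block and 1 with WT alone, and at 6 months from 1 to 0 with the block or either control alone. The combined counts moved from 1 to between 0 and 5 for Q92 and from 2 to 0 or 1 for CAG length. From 0, the test of sex by age reached 2 by DESeq2 and 4 with its size factors, that of CAG length by sex at 10 months 5 by DESeq2 and 6 with no tag term, that of CAG length by age 3 with no filter, and the 2 WT groups at 10 months 1 by DESeq2. The cause of these changes was not tested. How reads were divided between hairpins of like sequence is not known, and the part of depth was not tested.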
